A study of Mus musculus with 4 samples.

Results

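Tumour necrosis factor (TNF) is a cytokine that activated macrophages make in large amounts. It is made as a membrane protein, cut from the cell surface by the protease ADAM17 with the help of iRhom2, the product of Rhbdf2, and bound by the receptors encoded by Tnfrsf1a and Tnfrsf1b. H3K4me3 is a histone mark of active promoters, and H3K9me3 is a mark of silenced chromatin. Described here are 9 mouse genes of this system out of 21900 protein-coding genes: the neighbouring cytokine genes Tnf, Lta and Ltb, the release genes Rhbdf2 and Adam17, the receptor genes Tnfrsf1a and Tnfrsf1b, the TNF-induced gene Tnfaip2, and Zc3h12a, whose RNase product breaks down cytokine mRNAs. Their peaks were those that overlapped the gene or lay within 5000 bp of it. Tnf, Rhbdf2, Zc3h12a and Tnfaip2 were chosen because an H3K4me3 peak had been seen in 1 genotype alone, so their H3K4me3 values are a description.

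Chromatin immunoprecipitation with sequencing (ChIP-seq) was carried out on peritoneal macrophages elicited with thioglycollate broth and then cultured. The 4 groups were H3K4me3 in Sun-/- cells, H3K4me3 in wild-type cells, H3K9me3 in Sun-/- cells and H3K9me3 in wild-type cells, all from C57BL/6 mice of 8 weeks, with 1 library each. The labels do not say which SUN gene was removed or how many mice were used, so the deletion could not be checked. A tag is a sequenced read end, and 26748289 filtered tags (at most 1 per position) were left for H3K4me3 in Sun-/- cells, 29681491 for H3K4me3 in wild-type cells, 28586946 for H3K9me3 in Sun-/- cells and 27727997 for H3K9me3 in wild-type cells. With 1 library per group no difference has a replicate check and no test was run. The 95% intervals given reflect counting error alone. All 10 macrophage markers looked up, such as Csf1r and Cd68, had H3K4me3 in both genotypes. Over all protein-coding genes 70.0% had it within 5000 bp in both genotypes, 1.43% in Sun-/- cells alone and 2.71% in the wild type alone. Over a promoter window 59.1% of genes with such a window had it in both genotypes. Of the T and NK cell markers 5 of 10 had a peak within 5000 bp in both genotypes, with 615 tags in Sun-/- cells and 1066 in the wild type, but 0 of 8 had a peak over the promoter, and Cd3e, Cd8a and Prf1 had none at all. Of the B cell markers 5 of 7 had a peak within 5000 bp in both genotypes, near the share of all genes, so nothing is read from that count. They held 848 tags in Sun-/- cells and 1201 in the wild type, and Ms4a1 had none. Of 4 B cell promoter windows that of Ebf1 was marked in both genotypes and that of Pax5 in the wild type alone. Of 6 eosinophil and mast cell markers Siglecf alone had a peak, in both genotypes, with 75 tags in Sun-/- cells and 32 in the wild type. Of 8 neutrophil markers 0 were marked in both genotypes, 3 in Sun-/- cells alone and 2 in the wild type alone, with 150 tags in Sun-/- cells and 205 in the wild type. Of 8 mesothelial and fibroblast markers 4 were marked in both, 0 in Sun-/- cells alone and 3 in the wild type alone, with 930 tags in Sun-/- cells and 1638 in the wild type. Lymphocytes also express Lta and Ltb, and the part of other cell types in the results was not tested. In bulk material fewer cells with the mark and less of the mark per cell cannot be told apart.

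The promoters that carry the findings are printed first. Each is the RefSeq window from 250 bp before to 50 bp after the annotated start, on the build GRCm38.p6 (mm10), and 8 of the 9 genes had such a window. That of Tnfaip2 lay under an H3K4me3 peak in Sun-/- cells alone, those of Tnf, Tnfrsf1b and Zc3h12a in the wild type alone and that of Ltb in both. Capitals mark matches, on either strand, to the TATA motif TATAAA, the GC box GGGCGG and an NF-kB-like motif (GGG, any 3 bases, then TTCC).
Tnf, chr17:35201958-35202257, minus strand: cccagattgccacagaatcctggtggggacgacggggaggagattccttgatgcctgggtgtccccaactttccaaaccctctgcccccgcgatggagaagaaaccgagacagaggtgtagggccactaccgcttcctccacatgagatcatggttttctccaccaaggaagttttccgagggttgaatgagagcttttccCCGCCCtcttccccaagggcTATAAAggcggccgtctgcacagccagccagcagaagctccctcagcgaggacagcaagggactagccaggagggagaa
Tnfrsf1b, chr4:145246821-145247120, minus strand: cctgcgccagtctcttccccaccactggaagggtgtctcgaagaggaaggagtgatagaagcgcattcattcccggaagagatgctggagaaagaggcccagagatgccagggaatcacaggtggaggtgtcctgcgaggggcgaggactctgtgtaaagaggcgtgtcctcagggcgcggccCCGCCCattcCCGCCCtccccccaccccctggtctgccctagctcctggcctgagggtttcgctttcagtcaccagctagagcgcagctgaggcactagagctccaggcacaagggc
Zc3h12a, chr4:125127832-125128131, minus strand: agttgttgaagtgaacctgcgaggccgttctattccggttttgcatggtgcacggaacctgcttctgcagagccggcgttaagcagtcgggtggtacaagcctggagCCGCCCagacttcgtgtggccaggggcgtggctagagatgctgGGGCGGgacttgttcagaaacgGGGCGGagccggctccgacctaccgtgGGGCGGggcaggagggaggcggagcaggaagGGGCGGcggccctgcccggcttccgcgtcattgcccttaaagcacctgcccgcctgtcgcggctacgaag
Tnfaip2, chr12:111442411-111442710, plus strand: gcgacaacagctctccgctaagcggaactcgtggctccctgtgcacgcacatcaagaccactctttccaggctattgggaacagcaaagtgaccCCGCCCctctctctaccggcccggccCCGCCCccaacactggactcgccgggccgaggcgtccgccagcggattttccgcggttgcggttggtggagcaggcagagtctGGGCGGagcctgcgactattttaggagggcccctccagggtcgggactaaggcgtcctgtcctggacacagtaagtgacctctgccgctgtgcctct
Ltb, chr17:35194257-35194556, plus strand: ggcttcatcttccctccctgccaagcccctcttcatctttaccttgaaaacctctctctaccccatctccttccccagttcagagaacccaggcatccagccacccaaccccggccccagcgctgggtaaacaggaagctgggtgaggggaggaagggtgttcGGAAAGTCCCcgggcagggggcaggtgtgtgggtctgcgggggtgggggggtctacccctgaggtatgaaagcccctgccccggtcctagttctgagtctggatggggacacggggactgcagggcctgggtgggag

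In the Tnf window TATAAA began 29 bp before the start, a motif held by 13.6% of all 32851 promoter windows, and a GC box began 49 bp before it. The Ltb window held the NF-kB-like motif, read there as GGAAAGTCCC and found in 5.56% of all windows, 87 bp before the start. The GC box, found in 35.7% of all windows, occurred 5 times in the Zc3h12a window and 3 times in that of Tnfaip2. The promoters differed in CpG content, a feature that the choice of genes did not use. The window of Tnfaip2, marked in Sun-/- cells alone, held 23 CpG, and those marked in the wild type alone held 11 in Tnf, 13 in Tnfrsf1b and 27 in Zc3h12a. Ltb held 7, Tnfrsf1a 11 and Adam17 30, all marked in both genotypes, and the unmarked Lta window held 10. The CpG counts of promoters marked in 1 genotype and in both therefore overlapped. Over all promoters the median was 8 CpG for those marked in Sun-/- cells alone, 9 for the wild type alone, 22 for both and 3 for neither.

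The Sun-/- library had H3K4me3 at 6 of the 9 genes, and the wild-type library at all 9. Of the genes 0 were marked only in the Sun-/- list, and 3 only in the wild-type list: Lta, Rhbdf2 and Zc3h12a. Tnf counted in Sun-/- cells through the Ltb peak alone, 2776 bp away, and no Sun-/- peak touched Tnf itself. Lta counted in the wild type through the Tnf peak and a peak of 35 tags, both outside Lta. The peaks of Tnfrsf1b and Tnfaip2 in the 2 genotypes did not overlap each other. Among all protein-coding genes 71.5% had H3K4me3 within 5000 bp in Sun-/- cells and 72.8% in the wild type. Of these genes 1.43% had it in Sun-/- cells alone, 2.71% in the wild type alone and 70.0% in both. Because some genes were chosen on this contrast, nothing is read from the difference. Counted by distinct peaks, 9 lay at these genes in Sun-/- cells, of which 4 had no overlapping wild-type peak, and 14 in the wild type, of which 9 had no overlapping Sun-/- peak. Over the whole lists 19.8% of Sun-/- peaks and 28.1% of wild-type peaks had no partner in this sense. At the promoter windows, a rule added after the data were seen, 3 genes were marked in both genotypes, Tnfaip2 in Sun-/- cells alone, and Tnf, Tnfrsf1b and Zc3h12a in the wild type alone, against 59.1%, 0.955% and 3.55% of the genes with such a window. A peak list holds no value where no peak was called, so a gene without a peak may still hold tags. The smallest Sun-/- H3K4me3 peaks in the list held 17 tags. Below, the score of a peak is the authors' own value, -10 times log10 of the caller's p-value.

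**Figure D1:**
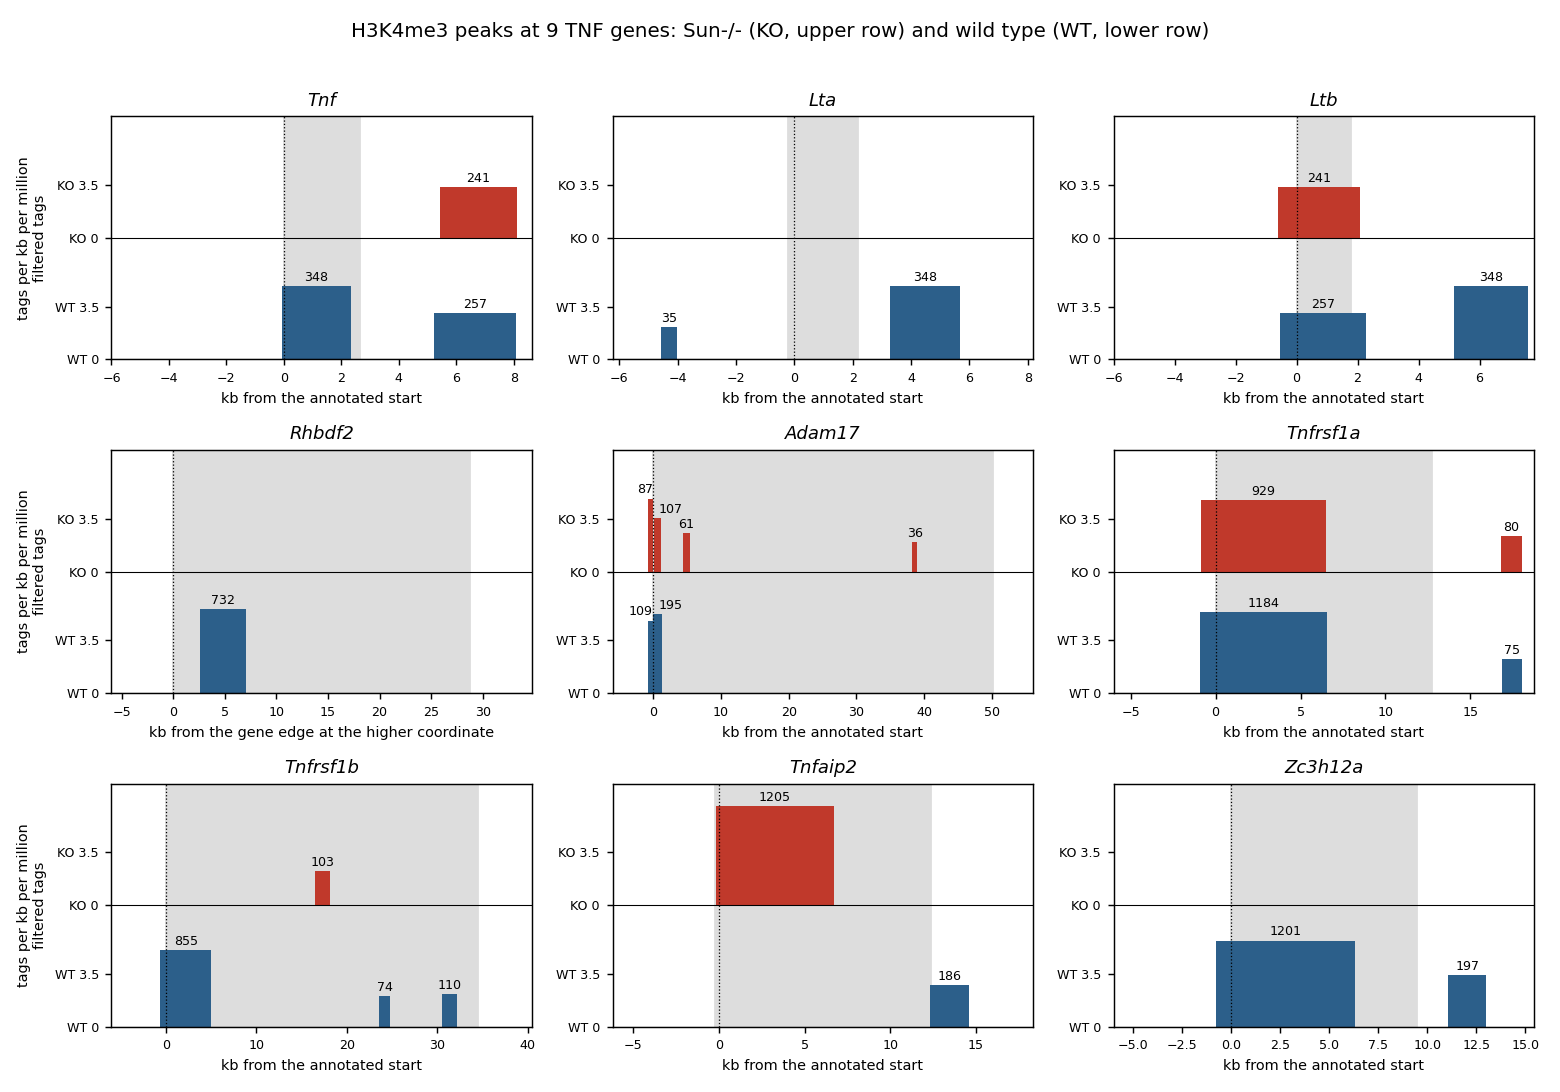
H3K4me3 peaks at the 9 genes, drawn by distance in kb along the gene (horizontal axis) and by tags per kb per 1000000 filtered tags (vertical axis), with the Sun-/- library (KO) above the wild type (WT). Grey marks the gene, the dotted line the annotated start (for Rhbdf2, whose strand the tables used do not give, the gene edge at the higher coordinate), and the figure over each box is its tag count. The boxes at the starts of Tnf, Tnfrsf1b and Zc3h12a, of 348, 855 and 1201 tags, have no box above them, while those of Ltb and Tnfrsf1a do.

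The cytokine genes Tnf, Lta and Ltb lie side by side on chromosome 17, so their windows share peaks. At Tnf (35199367 to 35202007, minus strand) no Sun-/- peak touched the gene, whereas a wild-type peak of 348 tags and 2416 bp ran from 35199666 to 35202081. It covered the start and the TATA motif, with its summit 205 bp inside the gene, and its score of 486 was exceeded by 28.1% of the wild-type peaks. The nearest Sun-/- peak lay 3075 bp away and was the one at Ltb.

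Ltb, which encodes the membrane-bound lymphotoxin beta, had its own peak in both genotypes. The Sun-/- peak held 241 tags over 2688 bp (35193904 to 35196591), and the wild-type peak 257 tags over 2832 bp (35193949 to 35196780). The tag density was 89.7 tags per kb in Sun-/- cells and 90.7 in the wild type. Over all 17114 paired peaks the median log2 ratio of Sun-/- over wild-type density was -0.19 when scaled to filtered tags, and single ratios are given relative to that median unless stated. On this centred scale the Ltb peak was at 0.32 (interval 0.062 to 0.58), higher than 90.0% of all pairs, and it was at 0.13 when scaled to filtered tags and at 0.23 when scaled to library totals. Of these neighbouring peaks the one at Ltb was called in both libraries with close tag counts and the one at Tnf in the wild type alone.

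Lta, which encodes the secreted lymphotoxin alpha, had no peak of its own over its promoter in either genotype. The Sun-/- library had no peak within 5000 bp of Lta, and the nearest one, that of Ltb, lay 6574 bp from it. Lta counted as marked in the wild type through the Tnf peak, 1084 bp away, and through a weak peak of 35 tags 3793 bp away (35209371 to 35209921). The wild-type Ltb peak, at 6385 bp, also fell outside the Lta window.

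Around Tnf, up to 100000 bp on either side and outside its window, the Sun-/- library had 13 peaks, 11 of them with a wild-type partner, and the wild type had 16, 12 of them with a Sun-/- partner. These flanking peaks held 3345 tags in Sun-/- cells and 4337 in the wild type. Their 9 pairs had a median centred log2 ratio of -0.094. Of the fixed list of 6 neighbours, 5 were in the gene table and all 5 had H3K4me3 in both genotypes. Each had fewer tags in Sun-/- cells than in the wild type before scaling to depth. The Sun-/- library was also the smaller one (26748289 against 29681491 filtered tags), so no direction is read from these raw counts. Nfkbil1 had 727 tags in Sun-/- cells and 761 in the wild type, and Lst1 had 110 in Sun-/- cells and 178 in the wild type. Ddx39b, an RNA helicase gene, had 849 tags in Sun-/- cells and 1135 in the wild type, and its neighbour Atp6v1g2 had 849 in Sun-/- cells and 1065 in the wild type. Aif1, a macrophage calcium-binding protein gene, had 281 tags in Sun-/- cells and 282 in the wild type. The 4 neighbours with a pair had a median centred log2 ratio of -0.024, but Ddx39b and Atp6v1g2 share 1 pair, counted for both. That pair was at 0.090, Nfkbil1 at -0.14 and Lst1 at -0.16. The Lst1 pair held 110 tags over 1602 bp in Sun-/- cells and 102 tags over 1053 bp in the wild type, so its ratio follows the called widths.

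The protein-coding genes most like Tnf in tags per 1000000 filtered tags in peaks within 5000 bp, over the 4 libraries, were Icmt, Id1 and Smcr8, at distances of 0.070, 0.077 and 0.079 on the log2 scale. Tnf had 241 H3K4me3 tags in Sun-/- cells and 605 in the wild type. The Ltb peak gave all 241 in Sun-/- cells and 257 in the wild type, so the likeness is to this window and not to Tnf alone. Icmt had 249 and 581, Id1 251 and 630, and Smcr8 256 and 605 in the same order, and all 4 genes had no H3K9me3 peak.

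Of the release genes, Rhbdf2 (chromosome 11, 116598148 to 116626960) had no H3K4me3 peak in Sun-/- cells and 1 in the wild type, of 732 tags over 4422 bp (116619925 to 116624346). That peak lay inside the gene, 2614 bp from its edge at the higher coordinate. Its score of 517 was the highest of all peaks at the 9 genes, and 1.72% of the wild-type peaks held more tags. No Sun-/- peak was found within 28999 bp of it. In the flanks of 100000 bp, 6 of 8 Sun-/- peaks and 6 of 8 wild-type peaks had a partner.

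Adam17, which encodes the TNF-cleaving protease, carried a pair of peaks around its start on chromosome 12 in both genotypes. The peak inside the gene held 107 tags over 1137 bp in Sun-/- cells and 195 tags over 1259 bp in the wild type, with a centred log2 ratio of -0.38 (-0.73 to -0.032). Only 4.1% of all pairs were lower, and the ratio stayed below 0 under scaling to filtered tags (-0.57) and to library totals (-0.47). The peak before the start held 87 tags in Sun-/- cells and 109 in the wild type, with a ratio of 0.20 (-0.22 to 0.62), an interval that includes 0. Inside the gene the Sun-/- library had further peaks of 61 tags and 36 tags that no wild-type peak overlapped. With all peaks summed, Adam17 had 291 tags over 3405 bp in Sun-/- cells and 304 tags over 2024 bp in the wild type.

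The 2 receptor genes gave different pictures. Tnfrsf1a, the receptor gene expressed in most cell types, had a broad peak over its start on chromosome 6 in both genotypes. It held 929 tags over 7351 bp in Sun-/- cells (125348858 to 125356208) and 1184 tags over 7473 bp in the wild type (125348827 to 125356299). The summits lay 294 bp inside the gene in Sun-/- cells and 361 bp in the wild type. The centred log2 ratio was 0.013 (-0.11 to 0.14), and its sign turned with the scaling, to -0.18 by filtered tags and -0.074 by library totals. A second peak downstream of the gene held 80 tags in Sun-/- cells and 75 in the wild type, at 0.28 (-0.19 to 0.76).

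Tnfrsf1b, the receptor gene more restricted to immune cells and endothelium, had no Sun-/- peak over its start on chromosome 4. The wild type had 1 there of 855 tags over 5650 bp (145241832 to 145247481), with a score of 379 and its summit 150 bp inside the gene. Within the gene body the Sun-/- library had a single peak of 103 tags (145228725 to 145230422), and the wild type had further peaks of 74 tags (145222035 to 145223282) and 110 tags (145214638 to 145216352). None of these overlapped a peak of the other genotype. Summed, the gene had 103 tags over 1698 bp in Sun-/- cells and 1039 tags over 8613 bp in the wild type, a log2 ratio of -3.18 (-3.49 to -2.89) scaled to filtered tags. Since the sums come from different places in the gene, this ratio follows which peaks were called.

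**Figure D2:**
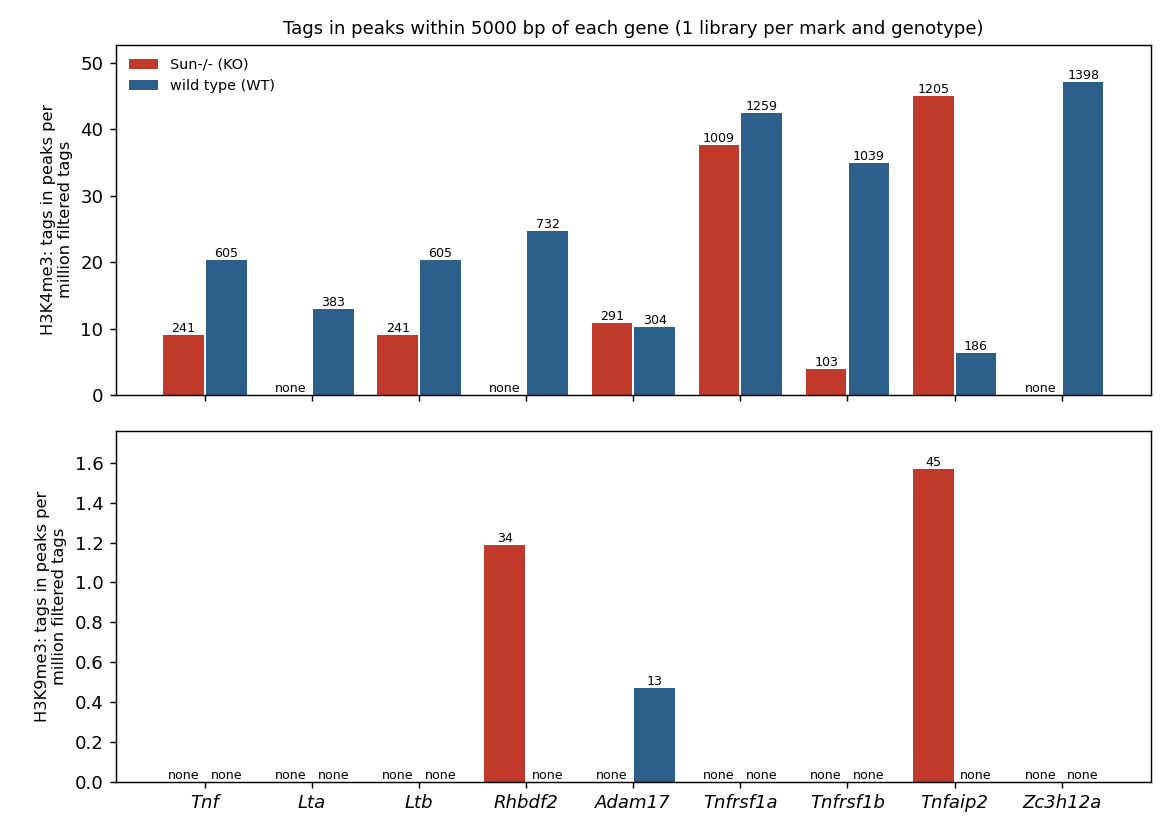
Tags in peaks within 5000 bp of each gene per 1000000 filtered tags, for H3K4me3 (upper panel) and H3K9me3 (lower panel), with bars for the Sun-/- library (KO) left of the wild type (WT), 1 library each. The number over a bar is the tag count, and "none" means that no peak was called. The Sun-/- H3K4me3 bar of Tnf holds the Ltb peak alone. Tnfrsf1a stands at similar heights in both genotypes, Tnfaip2 is higher in Sun-/- cells (1205 against 186 tags), and Zc3h12a and Rhbdf2 have H3K4me3 bars in the wild type alone.

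Tnfaip2, a gene that TNF induces, went the other way from Zc3h12a. On chromosome 12 the Sun-/- library had a peak of 1205 tags over 6871 bp (111442502 to 111449372) that covered the start, the 12th of 28505 by tags. The wild type had no peak there and 1 of 186 tags over 2264 bp (111455014 to 111457277) at the far end of the gene. The gap between these peaks was 5642 bp. The Sun-/- summit lay 2980 bp inside the gene, farther from the start than the summits at Tnf, Tnfrsf1b, Zc3h12a and Tnfrsf1a.

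Zc3h12a (chromosome 4, 125118414 to 125127881) had no peak in Sun-/- cells and 2 in the wild type. The larger held 1201 tags over 7093 bp (125121543 to 125128635), the 48th of 31398 by tags, and covered the start with its summit 150 bp inside the gene. The smaller held 197 tags and lay 1617 bp beyond the gene. The nearest Sun-/- peak to the large one was 15913 bp away. In the flanks of 100000 bp, 8 of 9 Sun-/- peaks and 6 of 6 wild-type peaks had a partner.

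The H3K4me3 peaks with the most tags among those found in 1 genotype alone at the 9 genes differed in score. Those of Tnf, Rhbdf2 and Tnfrsf1b scored 486, 517 and 379 in the wild type, and peaks of such scores were rarely without a partner. With a score of at least 300 it was 5 of 9363 Sun-/- peaks (0.0534%), of which 0 lay at the 9 genes, and 9 of 11924 wild-type peaks (0.0755%), of which these were 3. Tnf and Rhbdf2 were chosen for these peaks, so nothing is read from that count. Those of Tnfaip2 and Zc3h12a ranked 12th and 48th of their lists by tags but scored 96.6 in Sun-/- cells and 124 in the wild type. The shared Tnfrsf1a peak scored as low, 82.1 in Sun-/- cells and 108 in the wild type. The other H3K4me3 peaks without a partner at the 9 genes held at most 197 tags and scored from 50.3 to 141. Among peaks of at least 4000 bp with a score under 150, 7 of 87 Sun-/- peaks (8.05%) and 21 of 88 wild-type peaks (23.9%) had no partner. Among those with a score of at least 300 it was 2 of 168 Sun-/- peaks (1.19%) and 3 of 347 wild-type peaks (0.865%). Tnfaip2 and Zc3h12a were also chosen for their peaks, so nothing is read about them from these shares. The caller took its background from up to 10000 bp around a peak, per the file headers, and the part of this setting in the missing peaks was not tested.

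**Figure D3:**
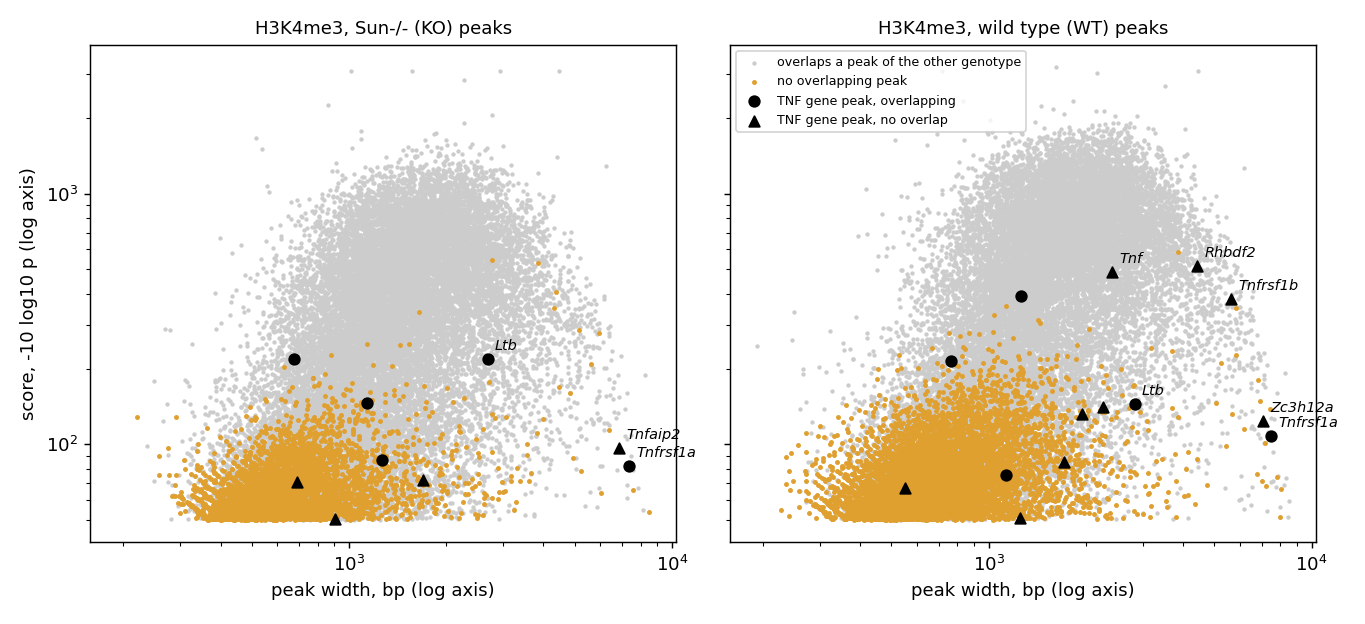
Width in bp (horizontal, log axis) and score (vertical, log axis) of every H3K4me3 peak, in the Sun-/- library (left) and the wild type (right). Grey points overlap a peak of the other genotype, orange points do not, and black circles and triangles mark the same for peaks at the 9 genes. The wide Tnfaip2 peak in the Sun-/- panel, at 96.6, and the wide Zc3h12a peak in the wild-type panel, at 124, lie near the Tnfrsf1a peak of their panel, and the wild-type Tnf, Rhbdf2 and Tnfrsf1b peaks, at 486, 517 and 379, lie higher, among grey points.

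Where peaks could be paired, the 9 genes gave 5 pairs with a median centred log2 ratio of 0.20, against 0 for all pairs by construction. The 5 ratios ran from -0.38 at Adam17 to 0.32 at Ltb, and 0 of them reached a 2-fold difference. Over all pairs 0.0409% reached 2-fold toward Sun-/- cells and 0.0117% toward the wild type. The window of Tnf entered through the Ltb peak alone. Lta, Rhbdf2, Tnfrsf1b, Tnfaip2 and Zc3h12a gave no pair.

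**Figure D4:**
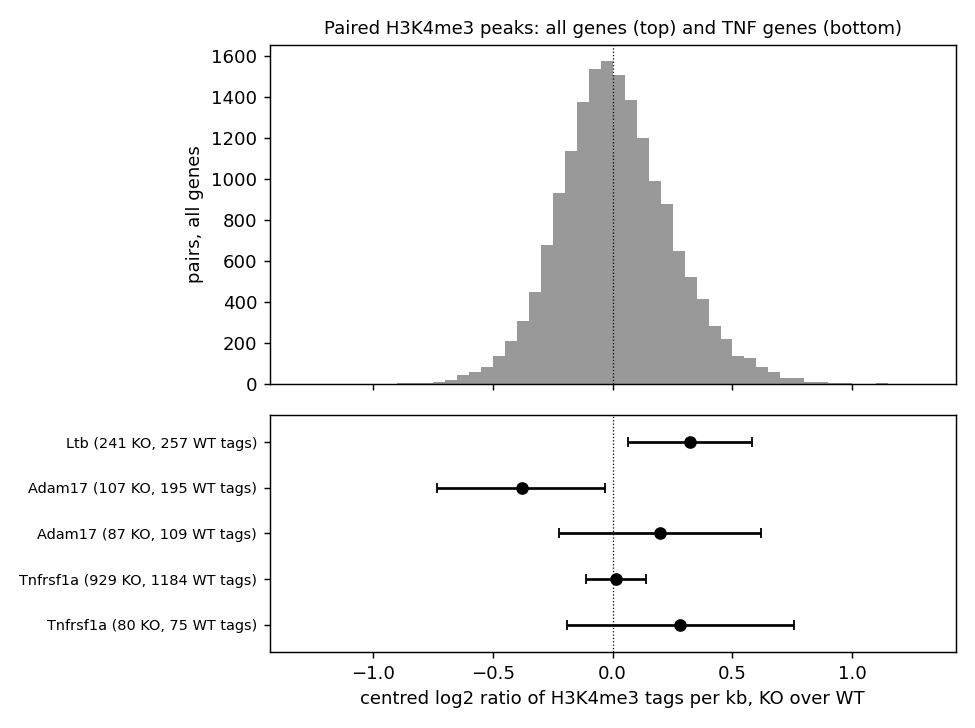
Centred log2 ratio of H3K4me3 tags per kb, Sun-/- over wild type, for all 17114 paired peaks (upper histogram, number of pairs) and for the 5 pairs at the TNF genes (lower panel, points with 95% counting intervals). The Ltb peak at 0.32 and the Adam17 peak at -0.38 lie toward the sides of the histogram, and the broad Tnfrsf1a peak at 0.013 lies at its middle.

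H3K9me3 was not used in the choice of the genes. Within 5000 bp, 2 of the 9 genes had a peak in Sun-/- cells and 1 in the wild type, against 32.4% and 29.8% of all protein-coding genes. Of the 8 promoter windows 0 lay under an H3K9me3 peak in either genotype, against 6.06% of genes in Sun-/- cells and 4.52% in the wild type. With so few genes, neither count is read as a difference from these shares. Rhbdf2 had Sun-/- peaks of 16 tags (116622832 to 116623066) and 18 tags (116623942 to 116624202), both inside the stretch that carried H3K4me3 in the wild type alone. Tnfaip2 had a Sun-/- peak of 45 tags (111445415 to 111445963), inside its Sun-/- H3K4me3 peak, with its summit 3132 bp from the start. Adam17 had a wild-type peak of 13 tags (21352027 to 21352232) deep in the gene. None of these overlapped an H3K9me3 peak of the other genotype, as was the case for 64.2% of Sun-/- and 67.5% of wild-type H3K9me3 peaks. Overlap of both marks was common: 37.6% of the Sun-/- H3K4me3 peaks of at least 4000 bp overlapped a Sun-/- H3K9me3 peak. Of the wild-type H3K4me3 peaks of that width, 32.0% overlapped a Sun-/- H3K9me3 peak and 30.2% a wild-type one. Of the peaks of that width without a partner, 7 of 14 in Sun-/- cells overlapped a Sun-/- H3K9me3 peak. In the wild type 7 of 27 overlapped a Sun-/- H3K9me3 peak and 4 of 27 a wild-type one. The Rhbdf2 peaks scored 51.2 and 60.4 and the Adam17 peak 53.8, in the lower part of their lists, with 91.6%, 55.7% and 77.5% of peaks scoring higher. The Tnfaip2 peak, with a score of 87.0, stood in the upper part of its list, where 7.36% of peaks held more tags and 23.9% scored higher.

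Other genes of the pathway came from fixed lists, and their counts stand against 70.0% of all protein-coding genes with H3K4me3 in both genotypes, 1.43% in Sun-/- cells alone and 2.71% in the wild type alone. TNF receptor signalling genes had H3K4me3 within 5000 bp in both genotypes for 22 of 22, and their paired peaks had a median centred ratio of -0.073. The highest were Tnip1, an inhibitor of NF-kB signalling, at 0.63 (0.41 to 0.85) with 429 tags in Sun-/- cells and 278 in the wild type, and Cflar, an inhibitor of caspase-8, at 0.49 (0.22 to 0.76). The lowest were Birc2, a ubiquitin ligase gene, at -0.34 (-0.69 to 0.0016) and Rnf31, a subunit of the linear ubiquitin ligase, at -0.34 (-0.56 to -0.12). The Rnf31 pair held 342 tags over 2252 bp in Sun-/- cells and 340 tags over 1399 bp in the wild type. Its ratio thus follows the called widths, and no loss of the mark is read from it. Members thus lay on both sides of the median pair.

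Among 13 genes of TNF mRNA control, all 13 had H3K4me3 in both genotypes, with a median of -0.0079 over 12 pairs. Tia1 was highest at 0.33 (0.047 to 0.61), followed by Elavl1, an mRNA-stabilising protein gene, at 0.26 (0.017 to 0.50). The Elavl1 pair held 237 tags over 1379 bp in Sun-/- cells and 348 tags over 1918 bp in the wild type, so its ratio also follows the called widths. Rc3h1, which encodes Roquin-1, was at -0.20 (-0.41 to 0.015) and Zfp36l1, a relative of tristetraprolin, at -0.18 (-0.42 to 0.045). The Zfp36l1 pair lay beside the gene. Over the gene itself a peak of 624 tags was called in the wild type alone, chosen here after its values were seen. It scored 129, close to the peak of Zc3h12a.

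The 6 other release genes were marked in both genotypes, with a median of -0.035 over 5 pairs and a range of -0.14 at Rhbdf1 to 0.19 at Timp3, an inhibitor of ADAM17. The Timp3 pair held 102 tags over 1137 bp in Sun-/- cells and 177 tags over 1775 bp in the wild type, so its ratio also follows the called widths. The sixth, Frmd8, whose product binds iRhom proteins, had no pair and is named after its values were seen. Its single Sun-/- peak held 208 tags and had a wild-type counterpart of 438 tags, both beside the gene. Neither genotype had a peak over its promoter window. Further wild-type peaks of 526 tags (score 57.7) and 168 tags (score 61.7) had no Sun-/- partner.

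Of 9 TNF-induced genes 8 were marked in both genotypes and Ccl2, a chemokine gene, in Sun-/- cells alone, with 25 tags. Their 7 pairs had a median of -0.27. Nfkbia, the NF-kB inhibitor gene, was lowest at -0.38 (-0.58 to -0.19), with 300 tags over 2487 bp in Sun-/- cells and 700 tags over 3514 bp in the wild type. Cxcl1 was at -0.32 (-0.72 to 0.073) and Tnfaip8 at 0.0028 (-0.19 to 0.20). Icam1, an adhesion molecule gene, was at 0.28 (0.099 to 0.46). Its pair held 407 tags over 2986 bp in Sun-/- cells and 680 tags over 4786 bp in the wild type. The Icam1 ratio thus also follows the called widths, and no gain of the mark is read from it.

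Of 14 other TNF superfamily ligand genes 12 were marked in both genotypes and 0 in either alone, and Cd40lg and Fasl, which T cells express, had no peak. Their 9 pairs had a median of 0.056. Tnfsf15 was highest at 0.93 (0.26 to 1.62), from few tags, 55 in Sun-/- cells and 30 in the wild type. Of 20 other receptor genes 16 were marked in both, 0 in Sun-/- cells alone and 2 in the wild type alone: Tnfrsf9, with 139 tags, and Edar, with 75. Their 15 pairs had a median of -0.037. Cd40 was highest at 0.50 (0.25 to 0.75), Tnfrsf13c was at 0.32 (-0.064 to 0.70), and Tnfrsf21 and Tnfrsf17 were lowest at -0.35 (-0.57 to -0.14) and -0.34 (-0.57 to -0.11).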

How the data were processed

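H3K4me3 and H3K9me3 ChIP-seq peak lists of 4 libraries were used, 1 per mark and genotype. CASAVA 1.4, Bowtie 0.12.8, MACS 1.4.2 and DiffBind with mm10 were named, without roles, per the submitters' processing notes. Peaks were called by the authors per library with MACS 1.4.2, without a control library, at a p-value limit of 1e-05, per the file headers. The deposited values were tag counts, the score (-10 times log10 of p), the fold enrichment (a linear ratio), and width and summit in bp (other measures). Score and fold are the authors' own and only describe or filter peaks within a list. Library sizes and filtered tags are those of the file headers. The caller's fragment size estimate for H3K9me3 was 71 bp in Sun-/- cells and 66 bp in the wild type, close to the tag length of 50 bp, per the file headers.

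Gene positions were those of RefSeq on GRCm38.p6, without exons, and starts and strands from RefSeq promoter windows (250 bp before, 50 bp after), so peaks were not assigned to exons or introns. All 9 symbols matched the gene table. A partner was any overlap of at least 1 bp. A pair was 1 peak of each genotype, each the sole peak overlapping the other, with 50% reciprocal overlap and 50 tags or more in 1 library. Density ratios were centred on the median pair and have exact conditional binomial 95% intervals. These intervals take the called widths as fixed. Sums per gene were scaled to filtered tags. The distance to Tnf was Euclidean, over log2 (tags per 1000000 filtered tags + 1). Genes and lists were chosen with earlier results of these data known. Named genes were the 9, from each list up to 4 marked in 1 genotype alone and up to 2 paired genes at each end, and the 3 most like Tnf. Not every gene this rule takes is reported. Aif1, Cd40lg, Fasl, Frmd8 and the single markers fall outside it and were named after their values were seen. The pairing was run on a simulated list that kept the coordinates of wild-type peaks, so it could not test changed widths or edges. Tools were scipy 1.17.1, pandas 2.3.3, matplotlib 3.10.9 and numpy 2.4.6, run under Python 3.11.15.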

Additional observations from a re-analysis of the deposited data

How the results depend on the processing

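No paired analysis was possible because there was 1 library per group and the labels give no replicate numbers. The count of genes with H3K4me3 in both genotypes, 6, was 5 to 7 with windows of 0, 1000 and 10000 bp, but 3 where both lists were limited to scores from 100 up and 3 of 8 by promoter windows. With that limit, on both lists or on the Sun-/- list only, 0 of 3 Sun-/- H3K4me3 peaks lacked a partner (4 of 9 otherwise). In the wild type it was 7 of 10 peaks with the limit on both lists (9 of 14 otherwise). With the limit on the wild-type list only it was 6 of 10. With the limit on both lists 0 genes had H3K9me3 in either genotype. The broad Tnfrsf1a and Tnfaip2 peaks of the Sun-/- library fall below that score. The median of the 5 pairs stayed above 0 under 5 alternatives, from 0.0097 to 0.24. Of the summed H3K4me3 ratios, scaling to all peak tags gave -0.83 for Tnf and Ltb, 0.43 for Adam17, -2.84 for Tnfrsf1b and 3.19 for Tnfaip2, and turned Tnfrsf1a to 0.17 (otherwise -0.17). With windows of 1000 and 0 bp, which leave out the Tnf peak, Ltb turned to 0.057 (otherwise -1.18), and Tnf had no Sun-/- peak and so no ratio. With 10000 bp Tnfrsf1b was at -2.72. Of all alternative values 41 kept their direction and stayed within 1.5-fold or the counting interval, 12 moved further and 3 changed direction, as given above. The H3K9me3 peaks at these genes rest on 13 to 45 tags each.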

Other observations

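Outside the comparisons, the weak intragenic peaks of Adam17 and Tnfrsf1b can be given by position. The Sun-/- library had H3K4me3 peaks at 21334672 to 21335360 and 21368249 to 21369154 on chromosome 12, inside Adam17, with scores of 70.4 and 50.3. The Tnfrsf1b gene-body peaks scored 71.9 in Sun-/- cells and 50.6 and 84.6 in the wild type. All of these lay in the lower part of their lists, with 68.6% to 99.4% of peaks scoring higher.

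Peaks just beyond the 5000 bp limit were a Sun-/- H3K4me3 peak of 58 tags 5272 bp from Tnfrsf1a and a wild-type peak of 106 tags 5209 bp from Tnfaip2. Neither had a partner.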
